A study of Mus musculus with 2 samples.

Results

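The 29 genes described here encode enzymes that make cholesterol, the SREBP proteins that control those enzymes and proteins that move or store cholesterol. They were chosen by name: a gene is a member if a non-control array probe carries an accession that resolves to its symbol. The names, and those of the neighbouring lists below, were chosen with earlier results of these data known. Contrasts of members or lists with all genes are therefore a description and not independent support. All 29 had a probe, of 20659 named genes with one on the array, and together they had 40 probes. The array was hybridised with Cy3-labelled total RNA from RAW246.1 cells, described in the labels as macrophages, grown in DMEM. One culture received PBS. The other was given a synthetic form of miR-122, the microRNA that dominates in hepatocytes, and the dose stated in the labels is 5 μg/mL. Exposure time and passage are not given in the sources used here.

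Each group held 1 array, so the differences below have no replicate check, no standard deviation between cultures and no p-value. The labels disagree in places: the title of the sample whose source name and description give miR-122 contains the word "without", and the treatment text names the microRNA for both samples. The array is called the miR-122 array by its source name, and every direction rests on that. Both arrays were scanned in the same pass, and the position of an array on the slide and its treatment cannot be told apart. RNA came from whole cultures, so fewer cells of a type and less RNA per cell cannot be told apart either.

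Cholesterol is built from acetyl-CoA in a mevalonate stage, which yields isoprenoid units, and a sterol stage, which starts at squalene and ends in cholesterol. When sterol in the endoplasmic reticulum is low, the escort protein SCAP carries the SREBP transcription factors to the Golgi, where they are cleaved, and their active fragments switch on nearly every gene of the pathway, often together with the factor NF-Y. When sterol is plentiful, INSIG proteins hold SCAP back. Macrophages also take up cholesterol from engulfed material, release it from lysosomes through NPC1 and NPC2, and store it as esters made by SOAT1.

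The sequences upstream of these genes were searched for motifs of the factors named above. RefSeq promoter windows of build GRCm38.p6 matched 24 of the 29 members, and the 250 bases before each transcript start were searched on both strands. The motifs were TCACNCCAC for the sterol regulatory element, CCAAT for the NF-Y box and CACGTG for the E-box, which SREBP1 can also bind. Matches of different motifs overlapped in 0 cases in the members' windows. Of the 24 members, 21 (87.5%) held an NF-Y box in at least 1 window, against 37.5% of all 27025 genes of the table and 39.9% of the 11983 that were well above background on both arrays. Among the enzymes, it was 15 of 16. Counted over windows, the shares were 68.8% for the members and 33.8% for the whole table. In the neighbouring lists described below, the share of genes with an NF-Y box varied widely. It ran from 36.4% for SREBP cleavage and sterol-regulated degradation to 84.6% (11 of 13) for other sterol transport and esterification. The strict sterol regulatory element occurred in 1 member, Hmgcs1, and in 1.22% of all genes, and the E-box occurred in 5 members (20.8%) and in 6.86% of all genes. A match of letters is a description and does not show that a factor binds there.

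The windows of 5 members follow because they show matches to these motifs in genes at different steps, Npc2 among them as a gene with a positive difference. They are written 5′ to 3′ on the strand of the gene with the motifs in capitals. The window of Hmgcs1 (plus strand, chr13:119690101-119690350) holds the sterol regulatory element and 3 NF-Y boxes, that of Mvk (plus strand, chr5:114444019-114444268) holds 5 NF-Y boxes, and that of Cyp51 (minus strand, chr5:4104698-4104947) holds 1. The window of Insig1 (plus strand, chr5:28071162-28071411) holds 1 NF-Y box and an E-box, and that of Npc2 (minus strand, chr12:84773113-84773362) holds 2 NF-Y boxes.
Hmgcs1: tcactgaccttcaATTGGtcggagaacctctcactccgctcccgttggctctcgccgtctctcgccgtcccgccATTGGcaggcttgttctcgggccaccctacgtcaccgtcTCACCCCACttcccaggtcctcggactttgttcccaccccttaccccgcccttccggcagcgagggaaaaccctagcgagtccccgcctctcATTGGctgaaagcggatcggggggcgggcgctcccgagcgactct
Mvk: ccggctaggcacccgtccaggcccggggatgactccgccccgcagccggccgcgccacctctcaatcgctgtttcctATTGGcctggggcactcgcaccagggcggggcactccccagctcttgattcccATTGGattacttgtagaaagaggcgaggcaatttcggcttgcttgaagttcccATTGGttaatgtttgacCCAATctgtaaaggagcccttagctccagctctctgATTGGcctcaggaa
Cyp51: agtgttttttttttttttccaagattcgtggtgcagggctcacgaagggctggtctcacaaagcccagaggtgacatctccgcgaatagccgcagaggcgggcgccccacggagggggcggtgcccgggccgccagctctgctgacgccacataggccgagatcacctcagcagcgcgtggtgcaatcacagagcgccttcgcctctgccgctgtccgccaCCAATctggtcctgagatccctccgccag
Insig1: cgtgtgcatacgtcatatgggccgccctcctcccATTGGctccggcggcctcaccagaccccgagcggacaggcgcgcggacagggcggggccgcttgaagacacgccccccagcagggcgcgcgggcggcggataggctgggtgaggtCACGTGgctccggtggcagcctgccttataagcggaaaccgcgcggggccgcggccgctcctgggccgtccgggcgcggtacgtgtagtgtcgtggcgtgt
Npc2: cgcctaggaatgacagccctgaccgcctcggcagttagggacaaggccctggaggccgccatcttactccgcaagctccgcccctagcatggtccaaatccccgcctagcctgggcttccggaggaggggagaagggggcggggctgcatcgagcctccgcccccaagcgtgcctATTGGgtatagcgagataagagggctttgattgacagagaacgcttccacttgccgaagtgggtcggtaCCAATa
NF-Y boxes therefore stood upstream both of genes that were lower on the miR-122 array and of Npc2, the member with the largest positive difference.

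Enzymes of cholesterol synthesis were lower on the miR-122 array almost throughout the pathway, by small amounts. Of the 18 enzyme genes that were well above background on both arrays, 17 had a negative difference and 1, Ggps1, a positive one, with a median log2 difference of -0.47. Across all 28 members measured on both arrays, 22 differences were negative (78.6%) and 6 positive, and the median was -0.39. Over all 15022 named genes measured in this way, 39.7% of differences were negative and the median was 0.09. Differences are log2 signal after each array was scaled on its 75th percentile, miR-122 minus PBS. At least 1.5-fold lower were 6 members (Cyp51, Mvd, Lpin1, Lss, Insig1 and Sqle), 21.4% of the 28, against 5.99% of all genes. At least 1.5-fold higher was 1 member, Npc2, against 12.1% of all genes. Past 2-fold, 1 member, Cyp51, was lower and 0 were higher, against 1.78% and 4.57% of all genes. The counts move with the scaling, because many members lie close to 1.5-fold. With arrays scaled on their medians, 13 members were at least 1.5-fold lower and 1 was higher, against 10.5% and 7.53% of all genes. With quantile normalization the counts were 11 and 0, against 7.97% and 8.19%. These scalings shifted the median of all genes by -0.18 and -0.12, and the members moved with it. The members' median minus that of all genes was -0.48 with the 75th percentile, -0.48 with the array median and -0.43 with quantile normalization.

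**Figure D1:**
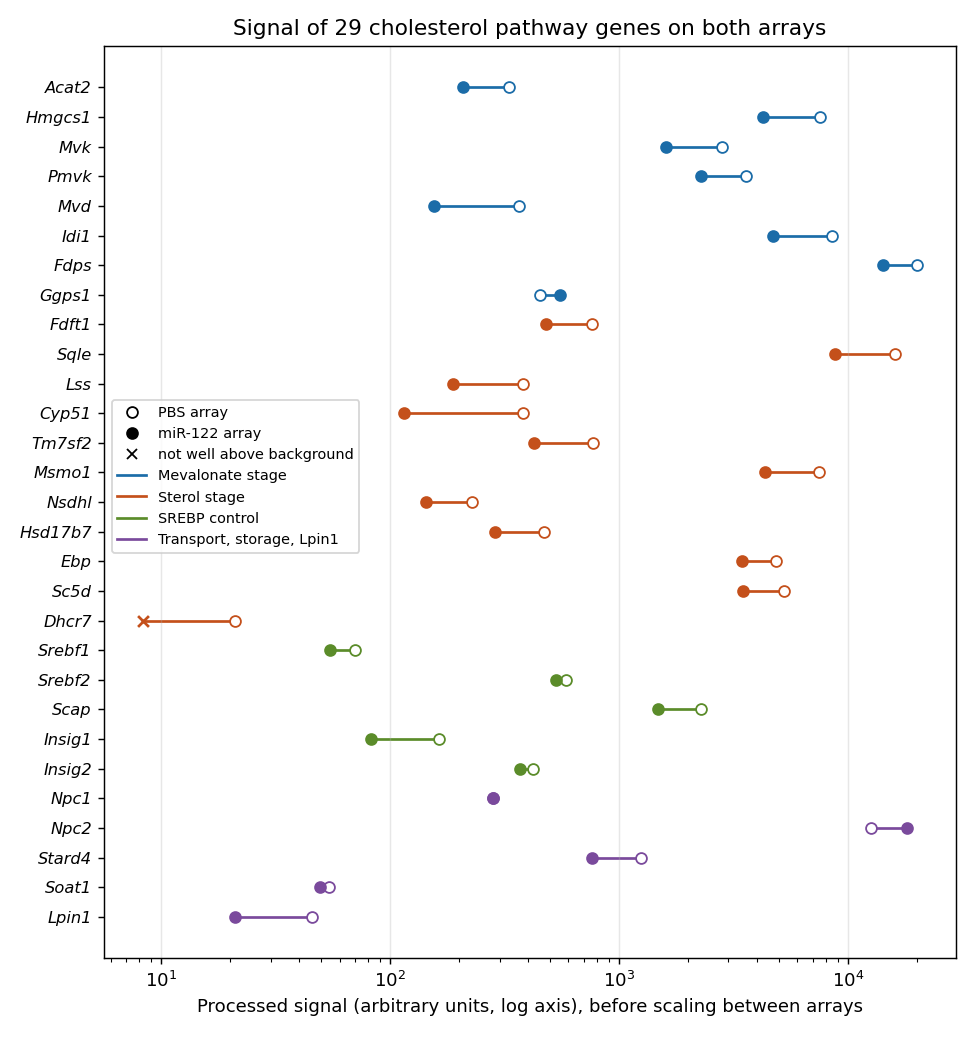
Processed signal in arbitrary units (log axis, before scaling between arrays) of the 29 genes in pathway order, with open circles for the PBS array, filled circles for the miR-122 array and a cross where the signal was not well above background. The filled circle lies to the left for all but Npc1, whose signals of 281 and 282 coincide, Npc2 and Ggps1, while the 75th percentile of the miR-122 array was itself lower (log2 difference -0.28).

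The mevalonate stage was lower from its start to farnesyl diphosphate. Acat2, which joins acetyl-CoA units in the cytosol, had a signal of 329.8 with PBS and 208 with miR-122, a scaled difference of -0.39. Hmgcs1, the cytosolic HMG-CoA synthase, had signals of 7537 and 4249 and a difference of -0.55. The signal on the miR-122 array was 56.4% of that on the PBS array before scaling, and the scaled value was 1.46-fold lower. The next 3 enzymes add phosphates to mevalonate and then remove its carboxyl group. Mevalonate kinase, Mvk, went from 2804 to 1598 (difference -0.53), and its second probe gave -0.42. Pmvk went from 3576 to 2271 (-0.38), with -0.46 at its second probe. Mvd, the decarboxylase, had the largest difference of the stage, with signals of 365 and 156, a difference of -0.95 and a 1.94-fold lower level. Idi1, which interconverts the isoprenoid units, had signals of 8473 and 4694 and a difference of -0.58, just under 1.5-fold. Fdps, which makes farnesyl diphosphate, had 19954 and 14208 and a difference of -0.21.

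Ggps1 stood apart from the other genes of this stage. Its enzyme turns farnesyl diphosphate into geranylgeranyl diphosphate, which serves protein prenylation and not sterols. Its signals were 451 and 553, a difference of 0.57 or 1.49-fold higher. Its second probe gave 357 and 312, a difference of 0.08, so the size of the increase depended on the probe.

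In the sterol stage all 10 enzymes measured on both arrays had negative differences, from -1.45 to -0.21, with a median of -0.47. Fdft1, squalene synthase, had signals of 759.7 and 480.8 (difference -0.38). Squalene epoxidase, Sqle, went from 16095 to 8738, a difference of -0.60. Lss, which closes the ring to lanosterol, went from 379 to 187 (-0.74). The member with the largest difference was Cyp51, the demethylase that acts on lanosterol. Its signals were 380.3 and 115, a difference of -1.45 and a 2.74-fold lower level, which placed it 85th from the lowest among the 15022 genes. Normexp background correction, used here as an alternative, adds an offset of 50 to each signal. The offset by design shrinks the differences of dim probes. With this correction the difference of Cyp51 was -1.11, still past 2-fold. The steps after Cyp51 were lower by less. Tm7sf2, a sterol reductase, had 768 and 426 (-0.57, and -0.30 at its second probe). Msmo1, the methyl sterol oxidase, had 7492 and 4339 (-0.51). Nsdhl, which acts with it, had 227 and 144 (-0.38, and -0.29 at its second probe). Hsd17b7, the keto reductase of the same step, had 469 and 286 (-0.44), but its second probe, about as bright, went from 431 to 185, a difference of -0.94. The sterol isomerase Ebp had 4839 and 3451 (-0.21), and the desaturase Sc5d had 5254 and 3465 (-0.32).

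Dhcr7, the reductase of the last step, was well above background on the PBS array alone. Its signals were 20.9 and 8.31, where the scanner software put the error at 31.8% of the second value. The log2 level was lower by at least 0.59, a bound that sets the PBS level against the lowest level well above background on the miR-122 array. With normexp its difference was -0.01. Both of its signals lie below the offset of 50 that normexp adds, so the direction was not measurable with that correction.

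**Figure D2:**
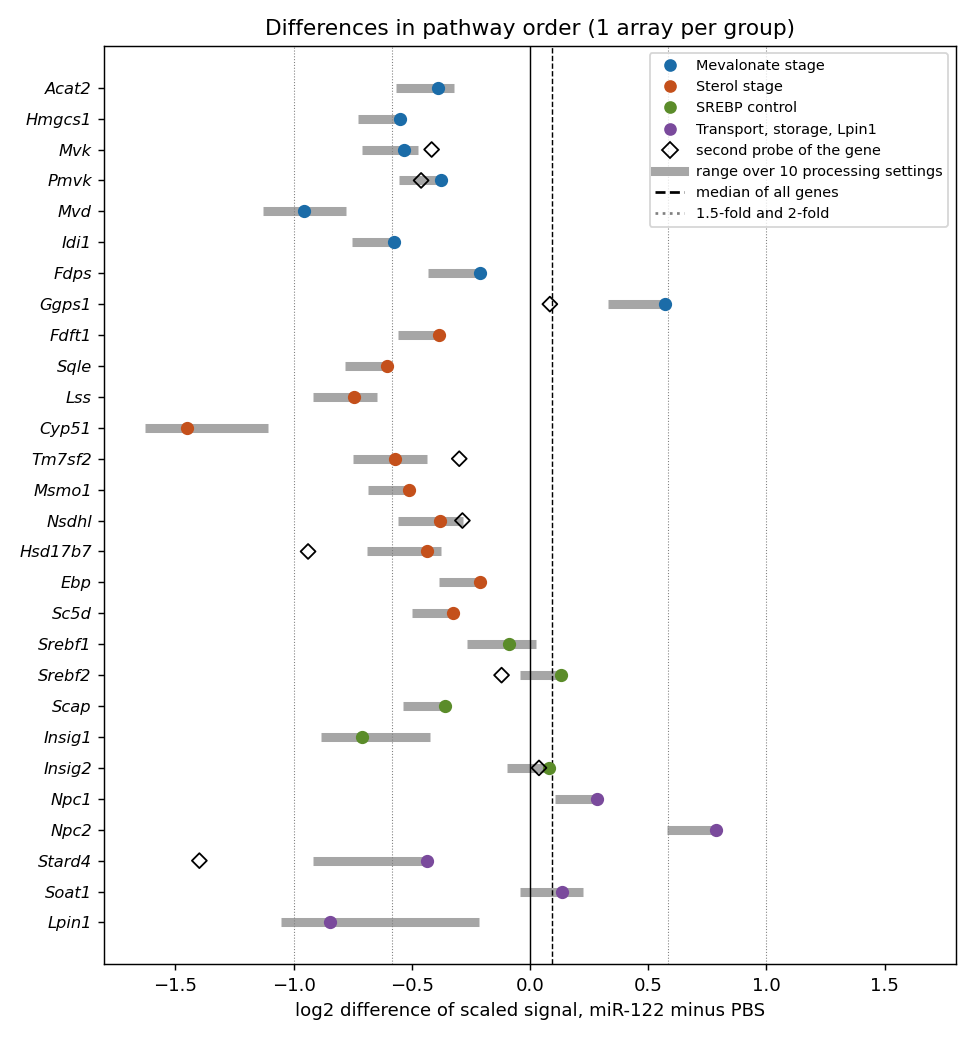
Log2 difference of scaled signal, miR-122 minus PBS, of the 28 members well above background on both arrays, in pathway order, with diamonds for second probes and grey bars for the range over 10 processing settings. The dashed line marks the median of all genes (0.09), and all enzymes except Ggps1 lie to its left.

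The genes that control the pathway did not share one direction. The 5 of them had a median of -0.09. Srebf2, which encodes the SREBP most tied to cholesterol synthesis, had signals of 588 and 532, a difference of 0.13, while its second probe gave -0.12. Srebf1, whose products favour fatty acid synthesis, was dim, with 70.1 and 54.4 and a difference of -0.09. Scap, the sterol-sensing escort, had 2285 and 1470.3 (-0.36). The INSIG genes differed from each other. Insig1, itself a target of SREBP, had signals of 163 and 82.2, a difference of -0.71 and a 1.64-fold lower level. Insig2, which is transcribed largely independently of SREBP, had 422 and 368, a difference of 0.08, with 0.04 at its second probe. The Insig1 value shrank to -0.42 with normexp. No test of the gap between the INSIG genes was possible with 1 array a group.

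Transport and storage genes went both ways, with a median of 0.13 over 5 genes, and held Npc2, the member with the largest positive difference. Npc2, the soluble lysosomal protein that hands cholesterol to NPC1, had signals of 12633 and 18002, a difference of 0.79 or 1.73-fold higher. Its difference was between 0.58 and 0.79 over 10 processing settings, so its place at 1.5-fold depended on the setting. Npc1, the membrane partner, had 281 and 282 (0.28 after scaling). Soat1, which esterifies cholesterol for storage, had 54.2 and 49.1, a difference of 0.13 whose sign changed with the scaling. Stard4, a cytosolic sterol carrier under SREBP control, was lower. Its brighter probe went from 1246 to 761, a difference of -0.43, and its other probe went from 598 to 187, a difference of -1.40. The probes agreed in direction but 1 lay past 2-fold and the other under 1.5-fold. Lpin1 encodes a phosphatidate phosphatase that is also an SREBP target. It was dim, with 45.7 and 21.0, and its difference of -0.85 became -0.22 with normexp. Its second probe was not above background on either array. No receptor that takes up lipoproteins is among the 29 genes, so uptake is represented here by handling of cholesterol inside the cell.

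The precision of these values is that of single spots, because each member probe was printed once. Probes printed 10 times gave a median standard deviation of 0.05 log2 units over spots with PBS and 0.06 with miR-122. Probes of the same gene disagreed more. The pooled standard deviation of the difference between probes of a gene was 0.30, both over 3575 genes and over the 9 members with more than 1 usable probe. Of the 17 negative differences of enzymes, 15 were larger in size than this spread, and those of Fdps and Ebp were smaller. The smallest of the 15 was that of Sc5d (-0.32), and 14.1% of all genes had a difference that low or lower. The spread between cultures was not measured. Of 37 member probes well above background on both arrays, 29 had a negative difference, against 39.7% of all genes, each counted by 1 probe.

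Signal brightness moved with the differences over the array as a whole, and it was set beside the members for that reason. In the dimmest of 5 brightness classes the median difference of all genes was 0.29 and 19.9% were negative, while in the third class the median was -0.01 and 50.6% were negative. Within the brightest class, 39.9% of all genes and 9 of 10 members had negative differences, with a median of -0.44 for those members. In the third class the members had a median of -0.41, with 6 of 8 negative. In the fourth class 4 of 6 members were negative, against 51.5% of all genes, with a median of -0.37 and 0 at least 1.5-fold lower, against 7.79%. The second class held 3 members with a median of -0.09, and the dimmest held Lpin1. Read against genes of like brightness in 20 narrower classes, 7 members lay below the 5th percentile of their class (Hmgcs1, Mvd, Idi1, Sqle, Cyp51, Msmo1 and Lpin1) and 14 between the 5th and the 25th. Above the 95th lay 0.

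**Figure D3:**
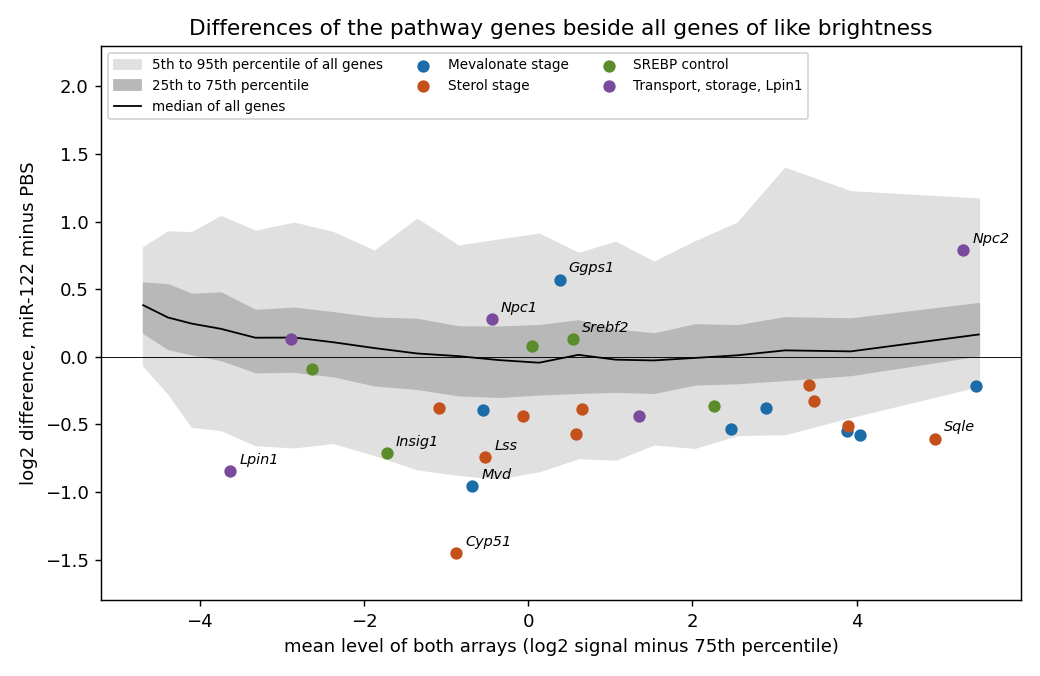
Log2 difference, miR-122 minus PBS, against the mean level of both arrays for the 28 members (points, coloured by role), with grey bands for the 5th to 95th and 25th to 75th percentiles of all genes in 20 classes of brightness. Of the members, 7 lie below the light band, and Npc2, Ggps1 and Npc1 lie above the dark band.

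Other genes that bear on the pathway were read from lists and showed where the lower values extended. Cytosolic acetyl-CoA supply, the source of carbon for sterols, had 5 genes, all negative against 39.7% of all genes, with a median of -0.28. Aacs, which makes acetoacetyl-CoA from ketone bodies, was 1.61-fold lower and Acss2, which activates acetate, 1.45-fold lower. Me1 and Slc25a1 had differences of -0.28 and -0.23. Fatty acid synthesis, which SREBP also controls, had 12 of 14 negative differences and a median of -0.58. At least 1.5-fold lower were 7 of its genes, and 2 were at least 2-fold lower. Over all genes, 39.7% were negative, 5.99% at least 1.5-fold and 1.78% at least 2-fold lower. The leading genes of the list were the desaturase gene Scd2, from 4293 to 1043 (-1.76), and the elongase gene Elovl6, from 507 to 150.2 (-1.48). Scd1 and Elovl5 had -0.85 and -0.83, and the dim Scd1 value was -0.31 with normexp. With that correction the dim Fasn and Gpam, named after their values were seen, went from -0.52 and -0.51 to 0.03 and 0.07. Fads1 and Fads2 shrank from -0.60 and -0.55 to -0.40 and -0.21. Scd2, Elovl6 and Elovl5 were still at -1.72, -1.19 and -0.77.

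The remaining lists differed from each other in direction. Isoprenoid branches and protein prenylation had 11 of 13 negative differences (84.6%), against 39.7% of all genes. The differences were small, with a median of -0.15 and 0 of the genes past 1.5-fold. Fntb, Icmt, Nus1 and Pdss1 had differences from -0.32 to -0.24. Fntb was dim, with 21.9 and 14.5, and its difference was 0.07 with normexp. The machinery that cleaves SREBP or degrades sterol-regulated proteins had 9 of 15 negative differences, against 39.7% of all genes. Its median was -0.11, with 0 of the 15 past 1.5-fold, against the same shares of all genes (5.99% lower and 12.1% higher). Syvn1, Rnf139 and Sec24b had differences of 0.58, 0.47 and 0.45, and Mbtps1, the protease that makes the initial cut in SREBP, -0.42. Other sterol transport genes went both ways, with a median of 0.05 over 16 genes. The endosomal sterol carrier gene Stard3 was 2.02-fold higher and Tmem97, a sterol-responsive gene whose product binds NPC1, was 1.68-fold lower. Soat2 and Gramd1c had differences of 0.61 and 0.55. Genes of oxysterol enzymes and LXR targets had a positive median of 0.30 over 8 genes. Of these, 6 had a positive difference, against 60.3% of all genes. Mylip, a ubiquitin ligase gene under LXR, was 1.82-fold higher (1.37-fold with normexp correction). Mylip was dim, with signals of 34.5 and 51.8. The exporter gene Abcg1 was 1.54-fold higher (1.38-fold with normexp correction). Hsd3b7 had -0.58 and Pltp 0.39. Ch25h, Cyp7b1 and Abca1 were not well above background on either array, so they have no difference here. All lists share the same pair of arrays, and no difference between lists was tested.

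**Figure D4:**
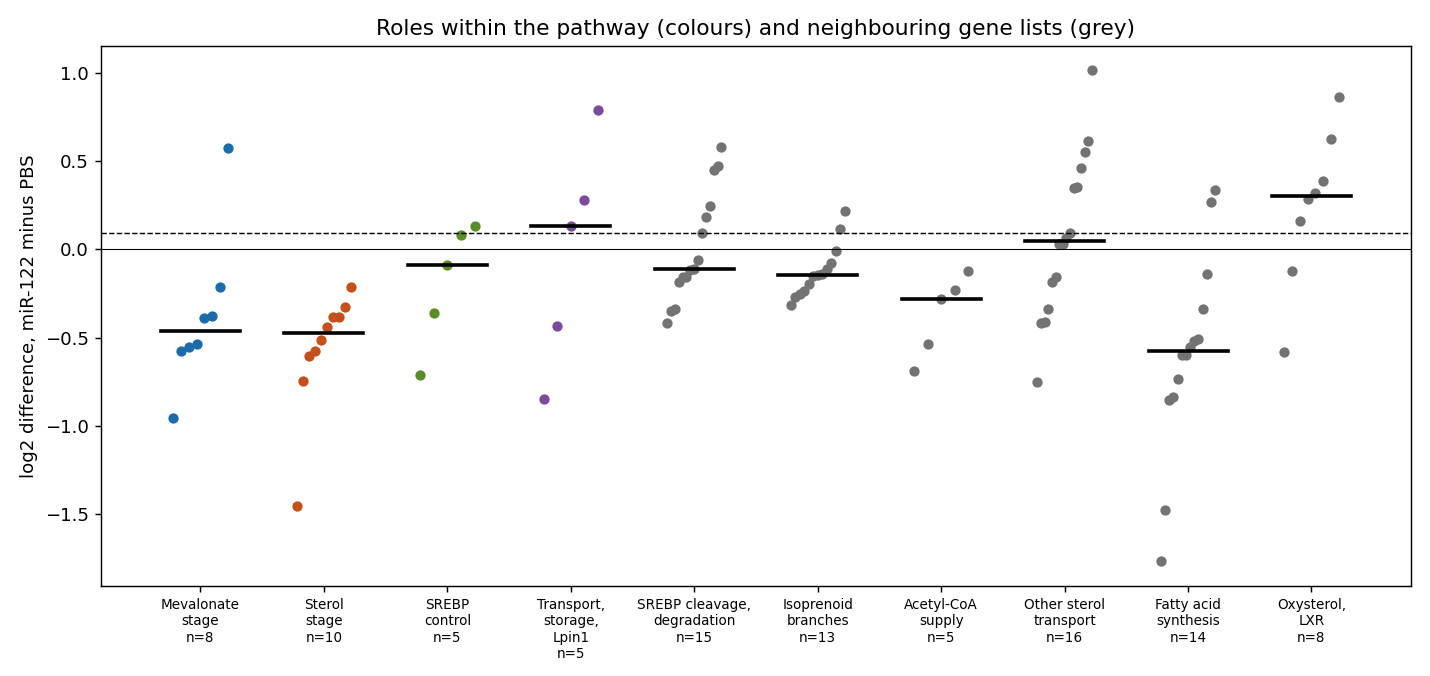
Log2 difference, miR-122 minus PBS, of each gene (points) in the roles of the pathway (colours) and in 6 neighbouring lists (grey), with a bar at the median of each and a dashed line at the median of all genes (0.09). The mevalonate and sterol stages (medians -0.46 and -0.47) and fatty acid synthesis (-0.58) lie lowest, and oxysterol and LXR genes (0.30) highest.

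The label macrophage was set against marker genes. Of 10 macrophage markers, 9 had a probe and all 9 were well above background on both arrays, with log2 summed levels of 7.90 and 7.61. Of all 20659 named genes with a probe, 15022 were well above background on both arrays. Being above background therefore says little by itself about the type of cell. Single macrophage markers differed in both directions, named after their values were seen: Itgam by -0.85, Csf1r by -0.78, Lyz2 by -0.71 and Adgre1 by -0.58, and Spi1 by 0.58 and Ptprc by 0.45. The first 4 of these are larger in size than the median of the cholesterol enzymes, and their part in the members' differences was not tested. The defining hepatocyte markers Alb and Apoa1 were not well above background on either array. Of 7 hepatocyte markers with a probe, 4 were well above background on both arrays, with log2 summed levels of 4.25 and 4.41, nearly all of it from Apoa2, named after its value was seen. Also below it on both arrays were Cd3d and Cd3g of T cells, Cd79b and Ms4a1 of B cells, and Pdgfra and Lum of fibroblasts, while 2 of 5 T cell, 2 of 4 B cell and 3 of 6 fibroblast markers were above it on both. So were 3 of 4 endothelial markers, with log2 summed levels of 0.29 and 0.46 and a difference of 0.92 for Cdh5, and 2 of 5 epithelial markers. The T cell marker Lck differed by 1.02.

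Over all genes with a window, those with a motif had slightly lower values than those without. Leaving the members out, the 4757 genes with an NF-Y box and a window had a median difference of 0.08, and the 7203 without had 0.09, and 7.27% and 5.25% were at least 1.5-fold lower. For the sterol regulatory element the medians were 0.04 over 144 genes and 0.09 over 11816, and 8.33% and 6.03% were at least 1.5-fold lower. For the E-box the medians were 0.05 over 1071 genes and 0.09 over 10889, with 7.19% and 5.94% at least 1.5-fold lower. None of these gaps was tested.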

How the data were processed

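The deposited scanner files give the intensity of each spot after subtraction of background and spatial detrending, without scaling between arrays. Per the file headers they were made with Agilent Feature Extraction 11.0.1.1. The authors' deposited series matrix holds log2 values; how they were normalized is not stated in the labels or headers. Its columns share 1 distribution with a median of 5.17 over probes and correlate at 0.997 with the log2 scanner signal of their own array. The PBS column correlated at 0.985 with the other array. The scale is therefore that of log2 signal without gene centring. Which culture received miR-122 still rests on the source name.

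Of 44397 spots per array, 1377 controls were left out, as were 145 and 196 outlier spots on the PBS and miR-122 arrays. Processed signals were taken to log2 and averaged over a probe's spots, and each array was scaled on its 75th percentile. Accessions were matched without versions to RefSeq symbols of GRCm38.p6 (27234 of 39429 probes). Each gene was represented by the brightest of its probes that were well above background on 1 array or on both. Genes were counted past 1.5-fold and 2-fold, with no test. The number of arrays limits the precision. Alternatives covered scaling, background correction, filters, probe averaging and thresholds. All members are named, and of each other list up to 4 genes with the largest absolute difference; other genes were named after their values were seen. The members and lists were chosen with earlier results of these data known. Gene counting was tested on simulated data. Software was R 4.3.3, limma 3.58.1, Python 3.11.15, numpy 2.4.6 and pandas 2.3.3.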

Additional observations from a re-analysis of the deposited data

How the results depend on the processing

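No paired analysis was possible because each group holds 1 array. Over 10 processing settings, 21 of 28 members kept a negative difference, Ggps1, Npc1 and Npc2 a positive one, and Srebf1, Srebf2, Insig2 and Soat1 changed sign. The share of all genes with a negative difference ran from 35.4% to 59.7% over these settings. How many of all genes kept a negative difference throughout was not counted. Relative to the median of all genes, 22 members were lower under every setting. Members at least 1.5-fold lower numbered 13 with median scaling, against 10.5% of all genes. They numbered 11 with quantile normalization and with the authors' log2 values, against 8.0% of all genes in both cases. With either of the last, 0 were at least 1.5-fold higher, against 8.19% of all genes. Members at least 2-fold lower numbered 3 with median scaling (Mvd, Cyp51 and Lpin1), 2 with quantile normalization, cyclic loess and the authors' values (Cyp51 and Lpin1), and 2 with no filter on dim probes (Cyp51 and Dhcr7). The share of all genes at least 2-fold lower was 3.04% with median scaling, 2.36% with quantile normalization and with the authors' values, 2.12% with loess and 2.18% with no filter. At 4-fold there were 0. Those shifts follow from the scaling, filter or threshold itself. Of 252 member values under alternatives, 3 moved by more than the spread between probes: Cyp51 (-1.11) and Lpin1 (-0.22) with normexp, and Stard4 (-0.92) as the mean over its probes. Many of the 252 had little or no room to move. The filter settings left the values of the 28 members unchanged, and keeping flagged spots barely altered them. Median scaling shifted every member by the same -0.18, and the authors' values nearly repeat quantile normalization. The 10 settings are therefore not independent checks. Dim genes, Lpin1 and Dhcr7 above all, are limited by signal over background.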
